A study of Mus musculus with 10 samples.

Results

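Procollagen chains are modified, folded, exported and trimmed before they join into fibrils, and the genes described here encode enzymes and helpers of those steps. They are the catalytic subunits of collagen prolyl 4-hydroxylase (P4ha1, P4ha2 and P4ha3), its shared partner subunit P4hb, the prolyl 3-hydroxylation partner Crtap, the collagen chaperone Fkbp10, the procollagen C-proteinase Bmp1 and its enhancers Pcolce and Pcolce2. The list was set by name, with no measured value in the rule. Earlier results of these data were known when it was chosen, so counts over it are not independent evidence of direction. The value of a gene is the log2 mean over array probe sets that name its symbol alone. Of the 9 listed genes, 8 were measured in this way, each by 1 probe set, among 22180 genes in all. Fkbp10 was not analysed here.

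The tissue was tracheal mesenchyme of male FVB/NJ mice, an inbred strain, aged 9 weeks. The exposed group was 5 mice that breathed 235 ppm of chlorine gas for 1 hr with the whole body and whose tracheas were taken 4 days later. The unexposed group was 5 mice with no treatment, and the labels name no engineered allele in either group. Tissue under the epithelium was taken by laser-capture microdissection of stained cryosections, pooled over the sections of each mouse and run on 1 Affymetrix array per mouse. The series title concerns fibrotic lesions that develop after exposure, and the comparison asks how the collagen-processing genes differed in that tissue. Array medians lay between 5.10 and 5.18 log2 units, and no array was dropped.

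A collagen chain is hydroxylated in the endoplasmic reticulum on proline, and the hydroxyproline formed lets the triple helix hold at body temperature. The prolyl 4-hydroxylase is built from alpha subunits, which carry the active site, and P4hb, a protein disulfide isomerase that keeps them soluble and in the endoplasmic reticulum. It needs iron, oxygen, oxoglutarate and ascorbate. After secretion, Bmp1 removes the carboxy-terminal propeptide of fibrillar procollagens, and the Pcolce proteins raise the rate of that cut.

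At 4 days after chlorine the genes of this pathway moved in opposite directions. P4ha3, Bmp1 and Pcolce rose, by 3.44-fold, 1.49-fold and 1.49-fold. P4ha1, P4ha2 and Pcolce2 fell and were 1.52-fold, 1.44-fold and 1.86-fold higher in unexposed mice. P4hb and Crtap did not pass the test (limma adjusted p = 0.163 and 0.255). Thus 6 of the 8 measured genes passed, 3 in each direction, where 10.8% of all genes tested passed, 5.85% higher and 4.97% lower. With any 1 mouse left out, 3 to 5 passed, and 3 passed without exposed mouse 2 or unexposed mouse 1, 4 or 5. The test was limma on the log2 values of 5 exposed and 5 unexposed mice, with p adjusted over all 22180 genes and a threshold of 0.05. For 4 of the 8 genes the ranges of the groups stood fully apart, where 11.0% of all genes tested did so. Exposed mice lay wholly above for P4ha3 and Pcolce, against 5.89% of all genes, and wholly below for P4ha1 and Pcolce2, against 5.06%. These shares of all genes, for calls and for ranges, are not matched for expression level. In a fit of only the genes at or above the median level, which kept all 8 genes, 1358 were called higher and 1201 lower. The fit of all genes called 1298 and 1102. Tested against a 1.2-fold change in place of no change, P4ha3 alone passed (adjusted p = 0.000147), with Pcolce2 at 0.0585 and the others above it. In bulk tissue, a change in the number of cells of a type and a change of RNA per cell cannot be told apart.

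**Figure D1:**
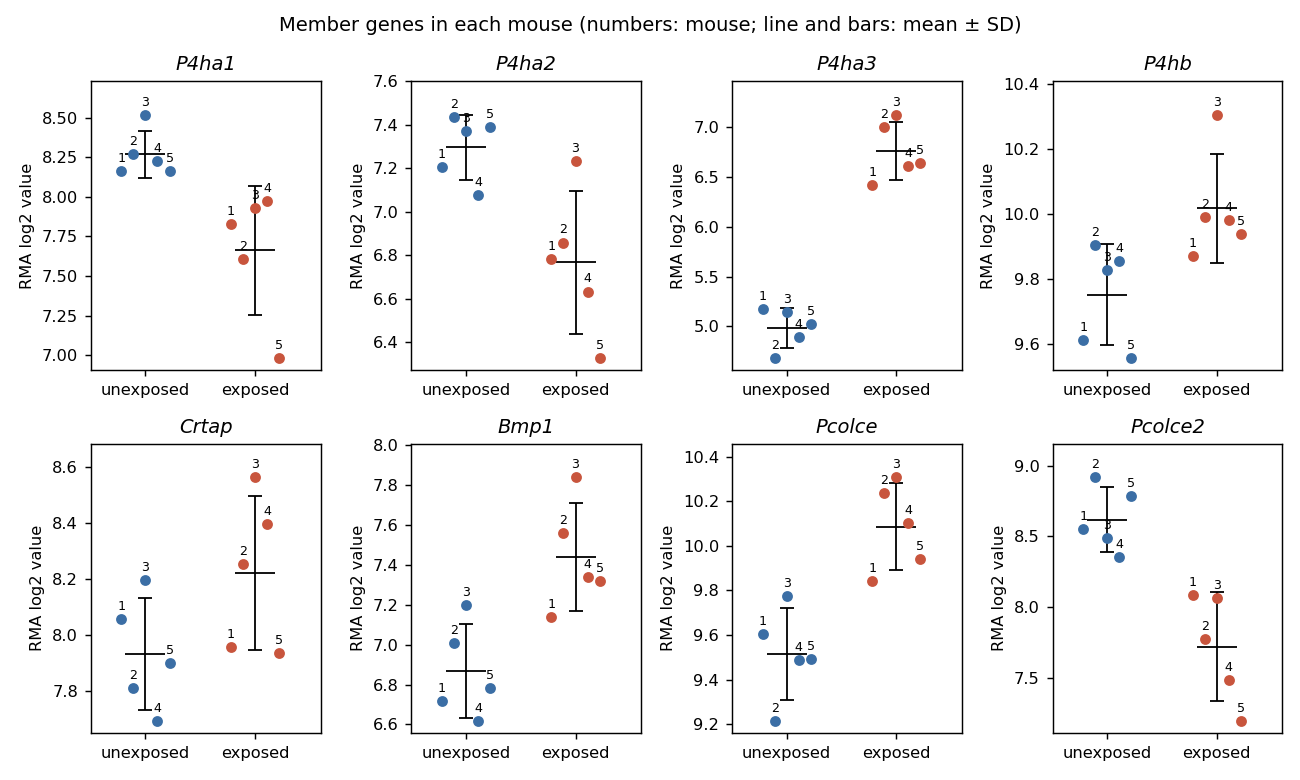
The log2 value of each measured gene (y axis, log2 units, a separate range per panel) is plotted for the 5 unexposed and 5 exposed mice, numbered as in the labels, with the mean and SD as a line and bars. P4ha3 shows the widest separation, with exposed mice at 6.42 to 7.13 and unexposed mice at 4.68 to 5.18, and exposed mouse 3 is the highest exposed mouse in 6 of the 8 panels.

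P4ha3 encodes the third catalytic alpha subunit, which is less widely expressed than the others. Its log2 values were 5.18, 4.68, 5.14, 4.90 and 5.02 in unexposed mice 1 to 5 and 6.42, 7.01, 7.13, 6.62 and 6.65 in exposed mice 1 to 5. Every exposed mouse lay above every unexposed mouse, with 1.25 log2 units between the groups. The mean rose from 4.98 ± 0.20 (SD, n = 5) to 6.76 ± 0.29 (SD, n = 5), a log2 change of 1.78 (SE 0.15, 95% interval 1.45 to 2.11, limma adjusted p = 5.45e-05). Among the 22180 genes this was the 125th largest rise. The unexposed mean lay below every array median, and the fold has no detection limit to set it against, so its size is uncertain. P4ha3 passed in each of the 10 fits that left out 1 mouse, with changes of 1.69 to 1.87.

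P4ha1 encodes the main alpha subunit of most cell types and P4ha2 a subunit that is prominent in cartilage. P4ha1 stood at 8.16, 8.27, 8.52, 8.23 and 8.17 in unexposed mice 1 to 5 and at 7.83, 7.60, 7.93, 7.97 and 6.98 in exposed mice 1 to 5. All exposed mice were below all unexposed mice, by at least 0.19 log2 units, and exposed mouse 5 was the lowest. The mean went from 8.27 ± 0.15 (SD, n = 5) to 7.66 ± 0.41 (SD, n = 5), a log2 change of -0.61 (SE 0.18, 95% interval -0.99 to -0.22, limma adjusted p = 0.0495). P4ha2 stood at 7.21, 7.44, 7.37, 7.08 and 7.39 in unexposed mice 1 to 5 and at 6.78, 6.86, 7.23, 6.63 and 6.33 in exposed mice 1 to 5. Exposed mouse 3 lay within the unexposed range, and the other 4 exposed mice lay below it. Its mean went from 7.30 ± 0.15 (SD, n = 5) to 6.77 ± 0.33 (SD, n = 5), a log2 change of -0.53 (SE 0.15, 95% interval -0.86 to -0.19, limma adjusted p = 0.0481). Exposed mice were more spread than unexposed mice for both genes, with SD ratios of 2.76 for P4ha1 and 2.19 for P4ha2.

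Both falls lay at the edge of the threshold. Leaving out exposed mouse 1 or 2, or any 1 of the unexposed mice, ended the call of P4ha1 (limma adjusted p = 0.0501 to 0.112), with changes of -0.68 to -0.43 over all 10 fits. With 1 mouse left out, the call of P4ha2 held only without exposed mouse 3 (adjusted p = 0.00973) and ended without each of the other 9 mice (adjusted p = 0.0557 to 0.107), with changes of -0.65 to -0.42. Centring the arrays on their medians also ended both calls (adjusted p = 0.0608 for P4ha1 and 0.0656 for P4ha2), as did another quantile normalization (0.0522 and 0.0539). The direction was downward for both genes in every fit run.

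P4ha1 and P4ha2 are known targets of hypoxia-inducible factors, which bind a core of ACGTG. The stretches that hold this core in the promoters of the alpha and beta subunits are shown because P4ha1 and P4ha2 moved against P4ha3. Sequences are from RefSeq, build GRCm38, 5′ to 3′ on the strand of the gene, and the core or its reverse complement CACGT is in capitals. The window searched was the 250 bases before the annotated start, on both strands, and 7 of the 9 genes were in the sequence table.
P4ha1, chr10:59323268-59323295, plus strand, core at 16 bases before the start: tgtgacagagcgCACGTagcgagggctg
P4ha2, chr11:54100834-54100862, plus strand, core at 78 bases before the start: tgtgcatcgcatACGTGcagcgcgtggcg
P4hb, chr11:120573293-120573321, minus strand, core at 56 bases before the start: tccgcccactgcCACGTtcgacggagaat
The windows of P4ha3, Pcolce, Pcolce2 and Crtap held no such core, and 16.6% of all 32851 promoter windows of this length held 1 or more. The member windows were 53.6% (Crtap) to 70% (P4ha2) G or C, against a median of 52.4% over all promoters. The share over all windows is thus not matched for G and C content. None of the matches was part of the letters CACGTG. The P4ha1 match lies inside a longer RefSeq transcript of that gene. A match is a description of letters only.

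The P4ha3 upstream sequence is given because that gene rose most. It covers 219 bases up to the outermost RefSeq start at chr7:100285270-100285488, plus strand, GRCm38, with each match to the GC box GGGCGG (reverse complement CCGCCC) in capitals.
P4ha3: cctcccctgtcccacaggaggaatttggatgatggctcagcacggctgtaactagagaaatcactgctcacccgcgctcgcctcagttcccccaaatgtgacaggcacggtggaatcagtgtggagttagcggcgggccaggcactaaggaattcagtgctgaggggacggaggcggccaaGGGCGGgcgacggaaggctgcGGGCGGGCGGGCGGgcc
It holds 4 matches, 3 of them overlapping one another near the start. Over 250 bases the counts were 5 for P4ha3, 3 for P4hb, 2 for P4ha2, 1 each for P4ha1, Pcolce and Pcolce2 and 0 for Crtap, and 32.7% of all promoter windows held at least 1. The P4ha3 window was 67.2% G or C, and this share is not matched for that content either.

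P4hb stood at 9.61, 9.91, 9.83, 9.86 and 9.56 in unexposed mice 1 to 5 and at 9.87, 9.99, 10.31, 9.98 and 9.94 in exposed mice 1 to 5. Exposed mouse 3 was the highest, and the groups overlapped only through exposed mouse 1, which lay below unexposed mouse 2. The log2 change was 0.27 (SE 0.11, 95% interval 0.02 to 0.51, unadjusted; limma adjusted p = 0.163). Crtap, which forms a complex with prolyl 3-hydroxylase 1 and cyclophilin B, stood at 8.06, 7.81, 8.20, 7.69 and 7.90 in unexposed and 7.96, 8.25, 8.56, 8.40 and 7.93 in exposed mice 1 to 5. Exposed mice 2, 3 and 4 lay above all unexposed mice and the other 2 within their range. Its log2 change was 0.29 (SE 0.15, 95% interval -0.03 to 0.61, limma adjusted p = 0.255). Rises of up to 1.42-fold for P4hb and 1.52-fold for Crtap thus lie within the intervals, so the failed tests do not show that the levels were equal.

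**Figure D2:**
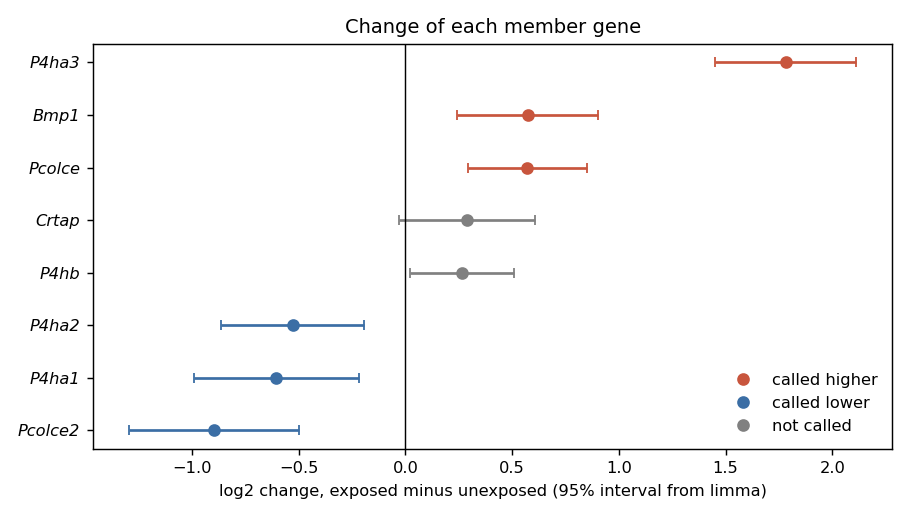
The log2 change of each measured gene, exposed minus unexposed (x axis), is drawn as a point with its unadjusted 95% interval from limma; red points were called higher, blue points lower and grey points were not called. P4ha3 stands apart at 1.78, the intervals of Bmp1 and Pcolce lie above 0, those of Pcolce2, P4ha1 and P4ha2 lie below 0, and P4hb and Crtap lie nearest to 0.

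Bmp1 encodes the secreted metalloproteinase that cuts the carboxy-terminal propeptide from procollagens I, II and III. It stood at 6.72, 7.01, 7.20, 6.62 and 6.78 in unexposed mice 1 to 5 and at 7.14, 7.56, 7.84, 7.34 and 7.32 in exposed mice 1 to 5. The groups overlapped through exposed mouse 1, which lay below unexposed mouse 3, and the other 4 exposed mice lay above all unexposed mice. The mean rose from 6.87 ± 0.23 (SD, n = 5) to 7.44 ± 0.27 (SD, n = 5), a log2 change of 0.57 (SE 0.15, 95% interval 0.24 to 0.90, limma adjusted p = 0.0322). Leaving out exposed mouse 2, 3 or 4, or unexposed mouse 1, 4 or 5, ended the call (adjusted p = 0.0531 to 0.0810), with changes of 0.47 to 0.66 over the 10 fits.

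Pcolce and Pcolce2 encode related secreted glycoproteins that bind the procollagen propeptide and speed its removal by Bmp1. Pcolce stood at 9.60, 9.22, 9.78, 9.49 and 9.49 in unexposed mice 1 to 5 and at 9.84, 10.24, 10.31, 10.10 and 9.94 in exposed mice 1 to 5. Each exposed mouse lay above each unexposed mouse, though exposed mouse 1 exceeded unexposed mouse 3 by only 0.065 log2 units. The mean rose from 9.51 ± 0.20 (SD, n = 5) to 10.09 ± 0.20 (SD, n = 5), a log2 change of 0.57 (SE 0.13, 95% interval 0.29 to 0.85, limma adjusted p = 0.0148). Pcolce2 stood at 8.55, 8.92, 8.49, 8.35 and 8.79 in unexposed mice 1 to 5 and at 8.08, 7.77, 8.07, 7.48 and 7.20 in exposed mice 1 to 5. Here every exposed mouse lay below every unexposed mouse, by at least 0.27 log2 units, and exposed mouse 5 was again the lowest. The mean went from 8.62 ± 0.23 (SD, n = 5) to 7.72 ± 0.38 (SD, n = 5), a log2 change of -0.90 (SE 0.18, 95% interval -1.29 to -0.50, limma adjusted p = 0.00862). Both enhancers kept their calls in all 10 fits that left out 1 mouse, with changes of 0.50 to 0.64 for Pcolce and -0.99 to -0.77 for Pcolce2.

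**Figure D3:**
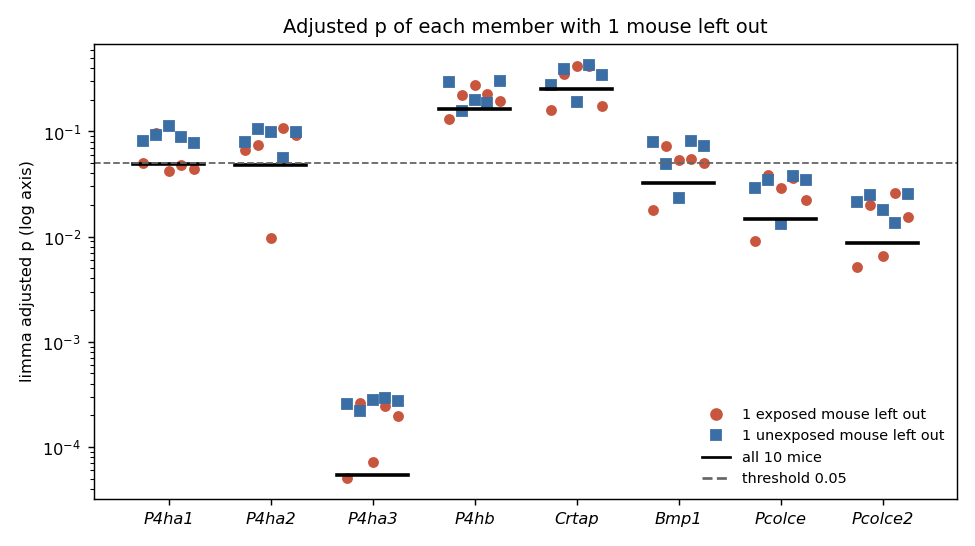
The limma adjusted p of each measured gene (y axis, log scale) is plotted for the 10 fits that each leave out 1 mouse, red circles for exposed and blue squares for unexposed mice, with a black line for all 10 mice and a dashed line at 0.05. P4ha3, Pcolce and Pcolce2 lie below 0.05 in all 10 fits, P4ha1, P4ha2 and Bmp1 straddle it, and P4hb and Crtap lie above it.

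The individual mice kept an order across several of these genes. Exposed mouse 3 held the highest exposed value of P4ha2, P4ha3, P4hb, Crtap, Bmp1 and Pcolce. Exposed mouse 5 held the lowest exposed value of P4ha1, P4ha2, Pcolce2 and Crtap, and exposed mouse 1 the lowest of P4ha3, P4hb, Bmp1 and Pcolce. Among unexposed mice, mouse 3 was highest for 4 genes and mouse 4 lowest for 4. After each gene was centred on its own mean, the pairs that differed least over the 10 mice were Pcolce with Crtap (root mean square difference 0.187 log2 units) and Pcolce with Bmp1 (0.189). P4ha1 and P4ha2 differed by 0.218, and P4ha3 differed from P4ha1 by 1.24 and from Pcolce2 by 1.39, the widest of the 28 pairs.

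Some markers of cell types also differed between the groups, and their part in the results was not tested. Of 17 cartilage markers, 0 rose and 4 fell, Cnmd, Matn1, Matn3 and Chad, with a median change of -0.81 against -0.0035 for all genes tested. The mean of the cartilage list was 8.14, 8.82, 8.12, 7.84 and 8.62 log2 units in unexposed mice 1 to 5 and 7.71, 7.16, 8.48, 7.33 and 6.36 in exposed mice 1 to 5. Exposed mouse 5 was the lowest in the cartilage mean and in P4ha1, P4ha2 and Pcolce2. Exposed mouse 3 was the only exposed mouse within the unexposed cartilage range, and it was the highest exposed mouse in P4ha2, whereas exposed mouse 4 was the highest in P4ha1 and exposed mouse 1 in Pcolce2. Exposed mouse 2, next to lowest in the cartilage mean, was next to highest of the exposed mice in P4ha2. Exposed mice 1 and 3 were the highest and the lowest exposed mice in the mean of the airway epithelium markers (9.67 and 7.32). Without both, the changes were -0.75 for P4ha1 (limma adjusted p = 0.0370), -0.69 for P4ha2 (0.0121) and -1.13 for Pcolce2 (0.00223), and the same 6 genes passed.

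Fibroblast markers were present in both groups, with list means of 9.68 to 9.99 in unexposed and 9.95 to 10.55 in exposed mice. Of 9 fibroblast markers 4 rose and 0 fell, with a median change of 0.34, and of 9 activated fibroblast markers 4 rose (Tnc, Cthrc1, Adam12 and Tnfrsf12a) and 0 fell, with a median of 0.68. The activated fibroblast mean was 7.09 to 7.48 in unexposed and 7.76 to 8.77 in exposed mice, highest in exposed mouse 3. Of 9 macrophage markers 5 rose and 0 fell, with list means of 7.22 to 7.85 and 7.98 to 8.74. Airway epithelium markers were present as well, at 8.95 to 9.23 in unexposed and 7.32 to 9.67 in exposed mice, with exposed mouse 3 the lowest. Of 11 measured, only Krt14 was called higher and 0 were called lower. Krt14 changed by 4.31 (limma adjusted p = 6.77e-06), the 7th largest rise among all genes tested. Scgb1a1 (-2.15, limma adjusted p = 0.140), Scgb3a2 (-2.48, 0.193) and Foxj1 (-1.37, 0.127) had lower exposed means but did not pass. Their SDs in exposed mice were 2.26, 2.95 and 1.36, and they were chosen after their values were seen. Krt8 (0.36, 0.102) and Cldn7 (0.18, 0.695) went the other way without passing. Of 9 adventitial fibroblast markers 1 rose and 2 fell, of 8 endothelial markers 1 rose and 0 fell, of 8 smooth muscle markers 0 rose and 0 fell, and of 7 skeletal muscle markers 0 rose and 1 fell. No smooth muscle marker was at an unadjusted p under 0.05 either (0 of 8).

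**Figure D4:**
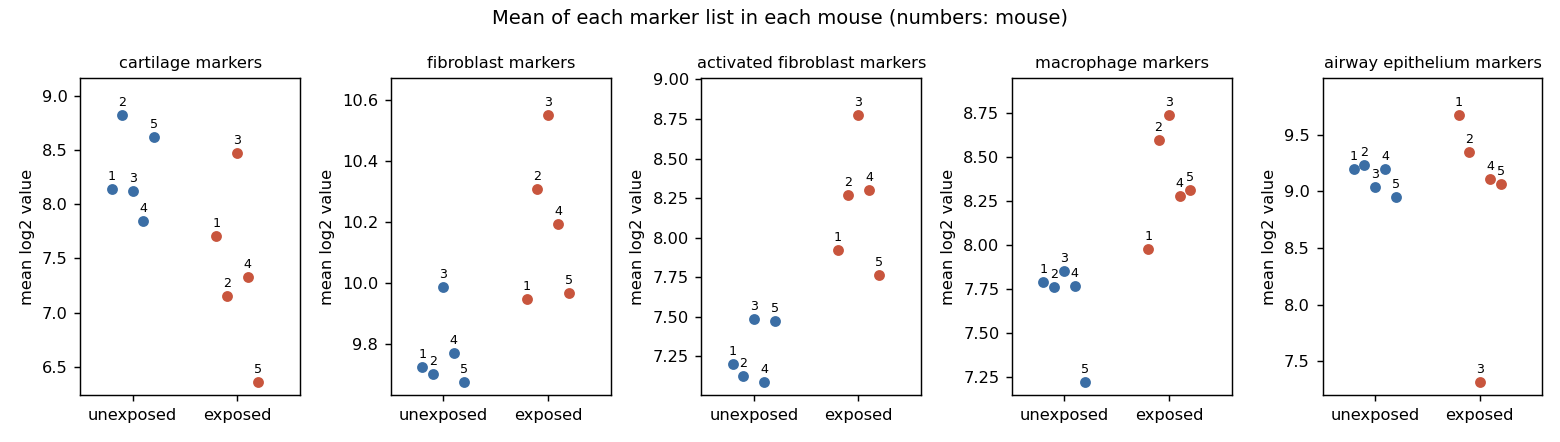
The mean log2 value of each of 5 marker lists (y axis, log2 units, a separate range per panel) is plotted for each unexposed and exposed mouse, numbered as in the labels. Cartilage means of exposed mice lie at 6.36 to 8.48 against 7.84 to 8.82 in unexposed mice, while activated fibroblast and macrophage means of exposed mice lie above all unexposed mice.

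The collagen chains on which these enzymes act were higher in part. Of 11 fibrillar chains, 4 rose and 0 fell, with a median log2 change of 0.34: Col5a2 (1.31, adjusted p = 0.000331), Col3a1 (1.04, adjusted p = 0.00295), Col1a1 (0.87, adjusted p = 0.0191) and Col5a1 (0.63, adjusted p = 0.0223), all by limma. Col1a1 and Col3a1 encode chains of collagens I and III, the main fibril formers of scar tissue, and Col5a1 and Col5a2 chains of collagen V, which helps to set fibril width. Col1a2, the partner chain of Col1a1, changed by 0.34 (limma adjusted p = 0.143) and the cartilage chain Col2a1 by -0.57 (adjusted p = 0.463). Col2a1 stood at 6.79, 7.65, 7.18, 6.82 and 7.34 in unexposed mice 1 to 5 and at 6.79, 6.20, 8.10, 6.63 and 5.21 in exposed mice 1 to 5, with exposed mouse 5 the lowest and exposed mouse 3 the highest. Leaving out exposed mouse 4 ended the call of Col1a1 (adjusted p = 0.0501), and leaving out that mouse or unexposed mouse 1, 4 or 5 ended the call of Col5a1 (up to 0.0585).

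Of 47 other genes of collagen modification, folding and export, in 4 lists, 5 passed (10.6%), a share near the 10.8% of all genes tested. The share over all genes is not matched for expression level. Of 12 genes of the prolyl 3-hydroxylase complex and collagen chaperones, 0 rose and 1 fell, with a median of 0.10. The fall was that of Creb3l1, a transcription factor of the endoplasmic reticulum that drives collagen secretion (-0.82, limma adjusted p = 0.00798). P3h1, the enzyme partner of Crtap, changed by 0.56 (adjusted p = 0.178), cyclophilin B (Ppib) by 0.13 (0.452) and the collagen chaperone Serpinh1 by -0.01 (0.975); these 3 were chosen after their values were seen. Of 6 genes listed under lysyl hydroxylation and collagen glycosylation, 1 rose and 0 fell. The rise was that of the immunophilin Fkbp11 (0.82, adjusted p = 0.0241), itself neither a hydroxylase nor a glycosyltransferase. Leaving out exposed mouse 2 or 4, or unexposed mouse 1, 2 or 3, ended the call (up to 0.0616). Plod1 (0.53, adjusted p = 0.0982), Plod2 (0.28, 0.484), Colgalt1 (0.35, 0.143) and Colgalt2 (-1.13, 0.142) did not pass. Of 15 protein disulfide isomerase and folding genes, kin and neighbours of P4hb, 2 rose and 0 fell, namely Pdia5 (0.65, adjusted p = 0.0225) and the oxidase Ero1a (0.48, adjusted p = 0.00376). Leaving out unexposed mouse 1 or 5 ended the call of Pdia5 (up to 0.0598). Of 14 export genes 1 rose and 0 fell: Mia2, which helps load procollagen into transport vesicles, rose by 1.65 (adjusted p = 0.000153), from an unexposed mean of 3.74 that lay below every array median, so the size of this change is uncertain too.

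**Figure D5:**
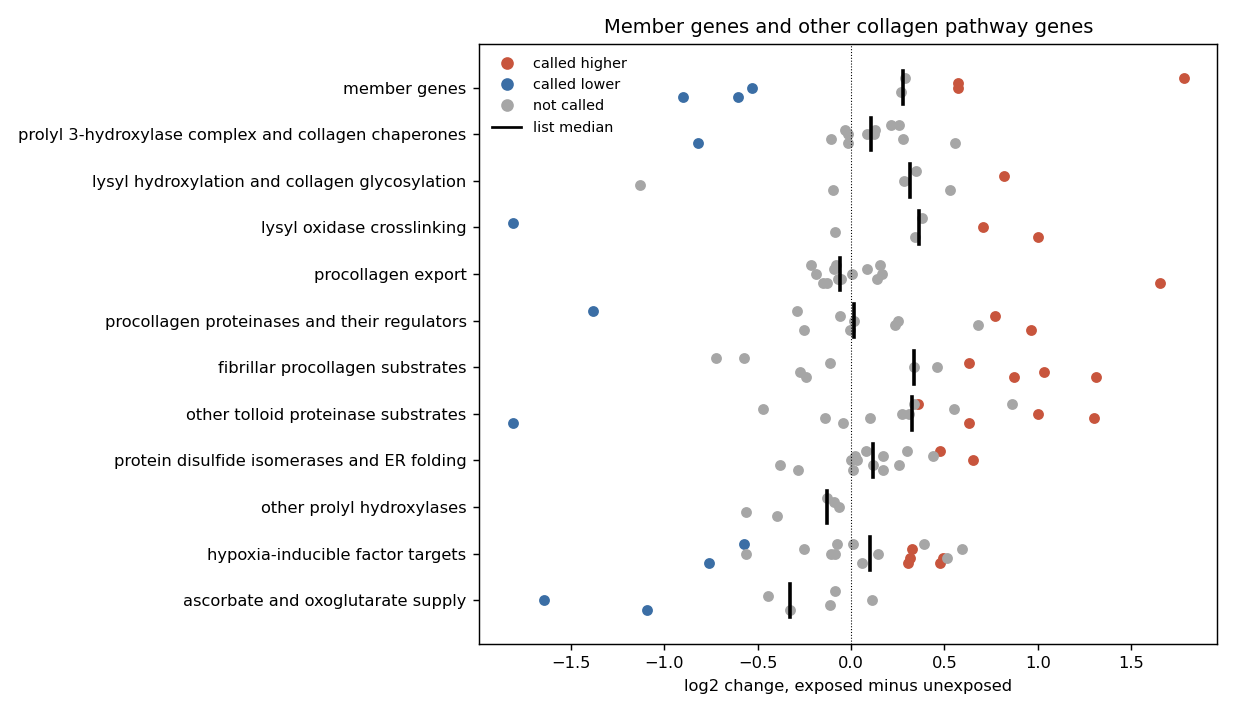
Each point is the log2 change (x axis, exposed minus unexposed) of 1 measured gene, with 1 row per gene list; red was called higher, blue lower and grey not called, and the black line is the median of the list. Medians lie between -0.33 for ascorbate and oxoglutarate supply and 0.36 for lysyl oxidase crosslinking, and most points are grey in every row but those of the member genes and of lysyl oxidase crosslinking.

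Genes listed as other substrates of Bmp1 and its relatives, besides the fibrillar collagens, changed in part at the RNA level. A link to the rise of Bmp1 was not tested. Of 14 measured, 4 rose and 1 fell, with a median of 0.32. The joint lubricant Prg4 rose by 1.30 (limma adjusted p = 0.000528), the crosslinking oxidase Lox, which Bmp1 activates, by 1.00 (adjusted p = 0.0237), the TGF-beta binding protein Ltbp1 by 0.63 (adjusted p = 0.00199) and the BMP antagonist chordin (Chrd) by 0.36 (adjusted p = 0.0262). The small proteoglycan Fmod fell (-1.81, adjusted p = 0.0206). Of 6 lysyl oxidase crosslinking genes, which include Lox and Fmod, 2 rose, the other being Loxl1 (0.71, adjusted p = 0.00758), and 1 fell, with a median of 0.36. Leaving out unexposed mouse 1 or 4 ended the call of Lox (up to 0.0617). The call of Chrd ended when exposed mouse 4 or 5, or unexposed mouse 1 or 4, was removed (up to 0.0689). For Fmod the same held of exposed mouse 4 and of unexposed mice 2 and 5 (up to 0.0545).

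Among 11 other procollagen proteinases and their regulators, 2 rose and 1 fell, with a median of 0.02. Sfrp2, a Wnt-binding protein that also binds Bmp1, fell (-1.38, limma adjusted p = 0.000331). The lysosomal protease Ctsb rose by 0.96 (adjusted p = 0.0032) and the secreted glycoprotein Fstl1 by 0.77 (adjusted p = 0.0197), the latter not without unexposed mouse 1 or 4 (up to 0.0533). The tolloid relatives of Bmp1 did not pass, Tll1 changing by -0.29 (adjusted p = 0.427) and Tll2 by 0.24 (0.307), both chosen after their values were seen.

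Among 7 genes of ascorbate and oxoglutarate supply, 0 rose and 2 fell, with a median of -0.33. The falls were those of the sodium-coupled ascorbate transporters. Slc23a2 changed by -1.64 (limma adjusted p = 6.33e-05) and Slc23a1 by -1.09 (adjusted p = 0.0018), and both kept their calls in all 10 fits that left out 1 mouse. The ascorbate synthesis enzyme Gulo (-0.11, adjusted p = 0.744) and the glucose transporter Slc2a1 (-0.08, adjusted p = 0.645) did not pass, nor did Idh1, Idh2 and Glud1.

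A list of hypoxia-inducible factor targets, without the P4ha genes but with the factor subunit Hif1a itself, had 18 measured genes. Of these, 5 rose and 2 fell, with a median of 0.10. Vegfa, an endothelial growth factor, fell (-0.76, limma adjusted p = 0.00798), as did the kinase Pdk1 (-0.57, adjusted p = 0.00836), while Ndrg1 (0.49, adjusted p = 0.00702), Ero1a (0.48) and the glycolytic enzyme Ldha (0.33, adjusted p = 0.0214) rose. Adm (0.59, adjusted p = 0.0866), Pfkfb3 (0.51, adjusted p = 0.205) and Hif1a (0.39, adjusted p = 0.121) had changes above that of Ldha but did not pass; these 3 were chosen after their values were seen. Pgk1 and Hk2 were the other 2 rises (0.31 and 0.30), each called in only 2 of the 10 fits that left out 1 mouse (without exposed mouse 3 or unexposed mouse 2 for Pgk1, without exposed mouse 1 or unexposed mouse 2 for Hk2; adjusted p up to 0.103 and 0.104 in the others). Leaving out exposed mouse 2, or unexposed mouse 2 or 4, ended the call of Ldha (up to 0.0515), and the calls of Ldha and Hk2 also ended when exposed mice 1 and 3 were both left out. The 5 other prolyl hydroxylases, which act on hypoxia-inducible factors or other proteins, gave 0 calls by limma. The nearest was the membrane-bound P4htm (-0.40, adjusted p = 0.0657, unadjusted p = 0.00823), chosen after its value was seen and the only 1 of the 5 at an unadjusted p under 0.05.

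The genes of the array whose pattern over the 10 mice lay nearest to each member were taken by the root mean square difference after centring, among 17656 named genes. For P4ha3 they were the actin-nucleating formin Diaph3 (difference 0.216, log2 change 1.66), the lysosomal protease Lgmn (0.222, log2 change 1.50) and the guanine deaminase Gda (0.227, log2 change 1.75), each called in all 10 fits that left out 1 mouse. For P4ha1 they were Ddit3 (0.132), Lman2l (0.135) and Id2 (0.161), and for P4ha2 Slc1a4 (0.108), Tspyl2 (0.125) and Cpe (0.134). For Pcolce2 they were Ddit4l (0.105), the growth factor receptor Fgfr3 (0.110) and the glycolytic enzyme Aldoc (0.167). For Pcolce they were Hmcn1 (0.0909), Nsf (0.0962) and the mucin-type glycoprotein podoplanin (Pdpn, 0.105), and for Bmp1 Lhfp (0.129), the collagen V chain Col5a1 (0.134) and Folr2 (0.136), a folate receptor of macrophages. Ddit3 and Cpe were not called (limma adjusted p = 0.0903 and 0.136). With 1 mouse left out, Lman2l, Id2, Slc1a4 and Tspyl2 were called in 5, 4, 6 and 2 of 10 fits. For Ddit4l, Fgfr3 and Aldoc the counts were 10, 10 and 9, and for Hmcn1, Nsf and Pdpn 3, 4 and 3. For Lhfp, Col5a1 and Folr2 the counts were 10, 6 and 8. The differences given are distances between values of the same 10 arrays, and no test was made on them.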

How the data were processed

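Gene expression was measured in dissected tracheal mesenchyme of 10 mice, 5 exposed and 5 unexposed, on 1 Affymetrix array each. The deposited values are log2 intensities, 1 per probe set and mouse, made by RMA (robust multi-array averaging) with Partek 6.6 according to the submitters' processing notes. For the RMA settings and the annotation build, the sources used here give nothing. The values range from 0.42 to 14.0, from which the log base was taken. Without scanner files background cannot be judged, and precision depends on how many arrays there are.

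Of 41345 probe sets, 23521 named 1 symbol, 1814 named several and 16010 are not listed in the platform annotation and so are unnamed here. The means of the 23521 gave 22180 genes. Groups were compared in R 4.3.3 by limma 3.58.1 (default lmFit and eBayes, two-sided, no covariate), with Benjamini-Hochberg adjustment over all genes and a threshold of 0.05. The script was tested on simulated data. Other steps used Python 3.11.15, pandas 2.3.3 and matplotlib 3.10.9. Of 228 entries in the gene lists, 214 were measured, and lists share genes.

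All members were named whatever their values. Each pathway list gave its called genes, up to 3 in each direction, Col1a1, Col1a2, Col2a1 and Col3a1 were always named, and each member with a change of at least 0.5 gave the 3 genes of nearest pattern. The members, lists, tests and alternatives were chosen with earlier results of these data known, so the counts are not independent evidence of direction. Sequences are from RefSeq, GRCm38.

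The alternatives covered normalization (quantile, or centring on the median of each array), a filter on dim genes, the brightest probe set, other eBayes settings, weights per array, a block on the mouse number, leaving out each mouse or exposed mice 1 and 3, a threshold of 0.01 and a test against a 1.2-fold change.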

Additional observations from a re-analysis of the deposited data

Results flagged for a closer look

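Each group of 5 mice was searched for a mouse whose gap to its nearest neighbour was over 0.71 of the range of the group, for 8 genes in 2 groups, or 16 sets of values. Chance marks about 1 in 20 such sets. The one set so marked was P4hb in exposed mice, where exposed mouse 3 stood at 10.31 and the other 4 at 9.87 to 9.99, a gap of 0.721 of the range. Without exposed mouse 3 the log2 change of P4hb was 0.19 (limma adjusted p = 0.277).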

How the results depend on the processing

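No measured gene changed its direction under any setting. Single-gene results were on the same side of the threshold in 120 of 152 comparisons and lost a call in the other 32. P4hb and Crtap had no call to lose and gained none, so all their comparisons are among the 120. The count of the 8 genes called higher was 3 and lower 3. With another quantile normalization or arrays centred on their medians, 1 was called lower, the calls of P4ha1 and P4ha2 being those lost. Against a 1.2-fold change, 1 was called higher and 0 lower, and 504 and 345 of all genes. At an adjusted p under 0.01, 1 was called higher and 1 lower, and 619 and 435 of all genes, where the main fit called 1298 and 1102. With 1 mouse left out, 2 to 3 were called higher and 1 to 3 lower, and 944 to 1432 and 723 to 1407 of all genes (725 lower without unexposed mouse 1 and 723 without unexposed mouse 4). Deviations of same-numbered mice from their group means correlated by -0.05 to 0.12. Of the 5 exposed mice, 1 correlated best with its own number. These correlations over all genes gave no clear sign of pairing by number but cannot exclude it. With the mouse number as a replicate block, 3 genes were called higher and 2 lower, P4ha2 losing its call (adjusted p = 0.0628), and 1026 and 854 of all genes. The calls of the pathway genes Chrd, Pgk1, Ldha and Hk2 also ended with the block. Each measured gene has 1 probe set, so fits of single probe sets gave no further value. Low values have no detection limit here, which limits the folds of P4ha3, Mia2, Chrd and Ldha, whose unexposed means lay below every array median.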
